A study of Mus musculus with 6 samples.

Results

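The hypoxia-inducible factors (HIFs) and a set of their targets were examined in mouse liver after ischemia/reperfusion (I/R), as 10 genes chosen by name out of 15454 in the count table. They comprise the oxygen-regulated HIF subunits Hif1a and Epas1, the prolyl hydroxylases Egln1 and Egln3, and the HIF targets Vegfa, Adm, Ankrd37, Bnip3, Ndrg1 and P4ha1. All 10 were found and all 10 had enough reads to be tested. Livers came from male C57BL/6 mice aged 8 to 10 weeks, in which 75% of the liver was made ischemic for 1 h and then reperfused for 6 h. The 3 mice of the I/R group received vehicle, and the 3 mice of the I/R+Rk2 group received ginsenoside Rk2, a saponin from ginseng, at 30 mg/kg in the same vehicle. Both were injected intraperitoneally 2 days before surgery and again when perfusion began. The labels name no engineered allele, both groups were injured, and sham-operated livers were not analysed here, so every value is a comparison between injured livers. The libraries held 16809613 to 35618074 counts.

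HIFs are heterodimers of an oxygen-regulated alpha subunit and the stable partner Arnt. When oxygen is present, the Egln enzymes hydroxylate prolines of the alpha subunit, and the VHL ubiquitin ligase then marks it for degradation. When oxygen falls, the subunit accumulates and the dimer binds short elements with the core ACGTG or GCGTG near genes for glycolysis, vessel growth and mitophagy, and near Egln3 itself. Because this control acts on the protein, the transcripts measured here do not report HIF activity directly. Ischemia is a classical trigger of the pathway, and hypoxia in the liver is deepest around the central veins.

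Promoters were taken from RefSeq (build GRCm38.p6), each from 250 bases before to 50 bases after the start site, and entries were found for 8 of the 10 genes (not Epas1 and Ndrg1), with 2 start sites for Vegfa. Both strands were searched for ACGTG and GCGTG, and overlapping matches were each counted. At least 1 match was present in 8 of these 9 promoters, the first Vegfa start site being without one, against 43.8% of all 32851 promoters in the table. GC content ran from 54.7% to 86.0%. Both cores hold CG, and the GC content of all promoters was not measured, so the 43.8% is not matched for it. The second Vegfa window (46025114 to 46025413) lies inside the gene (46016993 to 46032369). The 4 promoters shown here are those of Hif1a, Egln3 and Ankrd37, whose transcripts fell, and of Bnip3, which held the most matches and whose transcript did not pass the test. Capitals mark the matches, and each sequence reads 5′ to 3′ along the strand of its gene.
Hif1a, chr12:73907617-73907916, plus strand: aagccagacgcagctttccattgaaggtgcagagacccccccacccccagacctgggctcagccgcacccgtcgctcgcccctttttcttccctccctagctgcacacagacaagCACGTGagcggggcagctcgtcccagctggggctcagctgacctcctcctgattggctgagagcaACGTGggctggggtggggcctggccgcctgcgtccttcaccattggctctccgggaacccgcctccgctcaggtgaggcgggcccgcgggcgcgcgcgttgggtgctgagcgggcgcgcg
Egln3, chr12:54203825-54204124, minus strand: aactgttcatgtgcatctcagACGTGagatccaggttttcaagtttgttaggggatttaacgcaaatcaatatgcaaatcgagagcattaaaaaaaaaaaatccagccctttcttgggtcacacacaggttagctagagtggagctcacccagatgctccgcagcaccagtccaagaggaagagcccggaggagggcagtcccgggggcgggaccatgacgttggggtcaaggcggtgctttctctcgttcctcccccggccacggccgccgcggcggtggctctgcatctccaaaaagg
Ankrd37, chr8:45999801-46000100, minus strand: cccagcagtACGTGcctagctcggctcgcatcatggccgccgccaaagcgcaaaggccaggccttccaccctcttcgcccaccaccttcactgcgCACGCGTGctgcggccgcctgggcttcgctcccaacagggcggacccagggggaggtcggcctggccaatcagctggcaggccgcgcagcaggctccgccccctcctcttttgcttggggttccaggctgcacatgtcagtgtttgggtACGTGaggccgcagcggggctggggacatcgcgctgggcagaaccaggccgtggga
Bnip3, chr7:138909457-138909756, minus strand: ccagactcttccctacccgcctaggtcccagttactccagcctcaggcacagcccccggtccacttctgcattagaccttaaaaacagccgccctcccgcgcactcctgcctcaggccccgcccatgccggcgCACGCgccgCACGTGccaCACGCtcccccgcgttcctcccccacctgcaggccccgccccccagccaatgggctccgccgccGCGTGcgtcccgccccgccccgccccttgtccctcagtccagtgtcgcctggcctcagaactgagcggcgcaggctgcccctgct
The Ankrd37 window held 4 matches, the nearest at position -6 from the start site, and the Bnip3 window held 5. In each of these windows 2 of the matches are the opposite strands of 1 palindrome. The Hif1a window held 3, of which 2 are the opposite strands of the same palindrome, and the Egln3 window held 1, at position -229. Bnip3 was shown because it held the most matches, so its count is not a comparison with the genes that fell. The 2 windows of Vegfa, which also did not pass, held 0 and 2. A match is a description of the letters, and no binding was measured.

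Of the 10 genes, 7 were lower in I/R+Rk2 and 0 were higher at an edgeR adjusted p below 0.05, while Vegfa, Bnip3 and Ndrg1 did not pass. Libraries were made from liver tissue, and the lobe sampled is not stated. In such tissue fewer cells of a type and less RNA per cell cannot be told apart. After Rk2, 9 of 10 neutrophil and all 10 monocyte markers were lower as well. Among all 12411 genes tested, 43.9% passed in either direction, 23.7% as lower and 20.3% as higher. Hif1a, Egln3 and Ankrd37 were also lower by more than 2-fold, a limit passed by 14.6% of tested genes, 11.4% as lower and 3.17% as higher. The median log2 fold change (log2FC, I/R+Rk2 over I/R) of the 10 genes was -0.70, beside -0.01 for all tested genes. In the 7 genes that passed, every I/R liver lay above every I/R+Rk2 liver, an arrangement found for 30.3% of tested genes, beside 27.1% with the reverse order and 57.4% in all. The count of 7 was unchanged with every other scaling that was tried. With library size alone the median of all genes moved to -0.17 and the share of lower genes among those called from 53.9% to 72.5%, and on log2(FPKM + 1) that share was 69.5%.

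**Figure D1:**
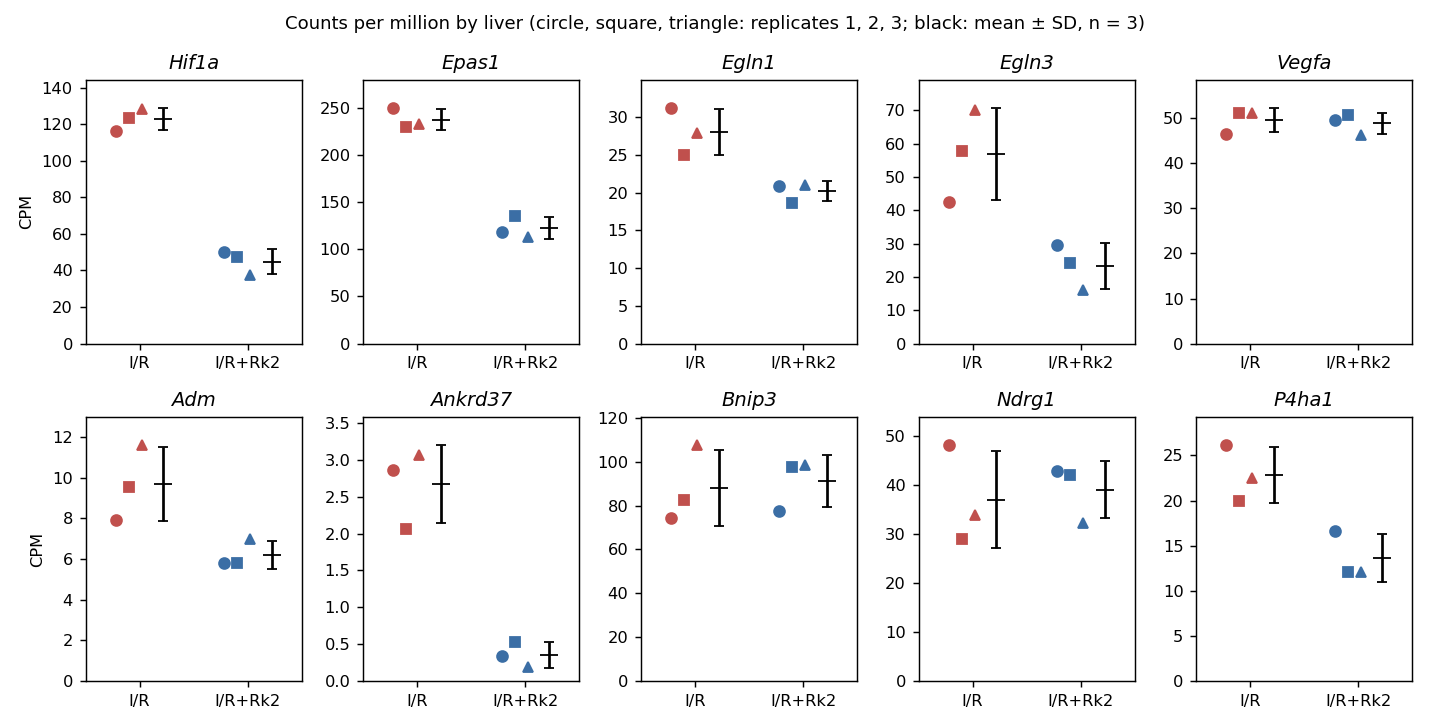
CPM (y axis from 0) of the 10 genes in each liver, with I/R in red and I/R+Rk2 in blue, circles, squares and triangles for replicates 1, 2 and 3, and black bars for the mean ± SD (n = 3). The groups are apart for 7 genes and overlap for Vegfa, Bnip3 and Ndrg1.

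Both HIF alpha subunits fell at the transcript level, Hif1a to 36.6% and Epas1 to 51.5% of their I/R means. Levels are given as CPM, counts scaled to 1000000 per TMM-scaled library. Hif1a (chromosome 12, 73901375 to 73947530, plus strand, GRCm38), the subunit found in nearly all cells, had 116, 124 and 128 CPM in I/R replicates 1 to 3 and 49.97, 47.2 and 37.4 CPM in I/R+Rk2 replicates 1 to 3. The I/R livers were close together and the highest treated liver was far below them. Its mean went from 123 ± 6.13 to 44.9 ± 6.61 CPM (SD, n = 3), a log2FC of -1.45 (standard error, SE, 0.12, edgeR adjusted p = 0.00042). Epas1 (chromosome 17, 86753700 to 86833410, plus strand), which encodes HIF-2 alpha and is known from endothelial cells and hepatocytes, had 249.7, 229.6 and 232.5 CPM in I/R and 119, 135 and 113 CPM after Rk2. This gave a log2FC of -0.96 (SE 0.10, edgeR adjusted p = 0.000683). Both genes kept their calls under all 18 alternatives, with log2 fold changes from -1.60 to -1.33 for Hif1a and from -1.12 to -0.83 for Epas1.

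The fall was steeper for Hif1a than for Epas1 as a point estimate. The ratio of Hif1a to Epas1 counts, which does not depend on scaling, was 0.465, 0.538 and 0.552 with vehicle and 0.421, 0.349 and 0.332 after Rk2. Every treated liver lay below every I/R liver, although I/R+Rk2 replicate 1 was close to I/R replicate 1. The mean log2 ratio differed by -0.50 (exact two-sided permutation p = 0.1, the smallest value this test can give with 3 against 3 livers). Arnt, the shared partner, had overlapping groups, 26.7 ± 4.84 against 23.2 ± 4.22 CPM (SD, n = 3), and missed the threshold (log2FC -0.21, SE 0.18, edgeR adjusted p = 0.383).

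Among the oxygen sensors, Egln1 and Egln3 fell and Egln2 did not pass. Egln3 (PHD3, chromosome 12, 54178981 to 54203860, minus strand), an enzyme that is itself a strong HIF target, had 42.5, 57.9 and 70.2 CPM in I/R and 29.6, 24.3 and 16.0 CPM after Rk2. It varied among livers of one group more than Hif1a did, with a coefficient of variation of 24.4% in I/R and 29.5% in I/R+Rk2, yet the groups stayed apart. This gave a log2FC of -1.28 (SE 0.26, edgeR adjusted p = 0.00716). Egln1 (PHD2, chromosome 8, 124908587 to 124949324, minus strand), the main HIF hydroxylase in most cells, had 31.2, 25.05 and 27.9 CPM in I/R and 20.9, 18.7 and 21.1 CPM after Rk2, a smaller log2FC of -0.47 (SE 0.11, edgeR adjusted p = 0.0139). Its call was lost without I/R replicate 1 (log2FC -0.38, edgeR adjusted p = 0.0547) and without Rk2 replicate 2 (-0.42, 0.0501). Egln2 (PHD1), which is known as the least hypoxia-responsive of the 3 enzymes, had 43.9 ± 0.943 and 48.4 ± 1.124 CPM, with the treated livers above the others, but missed the threshold (log2FC 0.14, edgeR adjusted p = 0.166).

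The counts of Egln3 relative to Egln1 overlapped between the groups. The ratio was 1.36, 2.31 and 2.52 with vehicle and 1.42, 1.302 and 0.758 after Rk2. I/R replicate 1 lay inside the treated range, and the mean log2 ratio differed by -0.83 (exact two-sided permutation p = 0.2).

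The largest fall among the 10 genes was that of Ankrd37, a small ankyrin repeat gene known as a HIF-1 target. It had 55, 53 and 77 counts with vehicle and 8, 18 and 3 after Rk2, or 2.87, 2.07 and 3.07 against 0.336, 0.533 and 0.184 CPM. The groups were well apart, but this was also the least abundant of the 10, and I/R+Rk2 replicate 3 held no more than the 3 counts taken as the detection floor. The log2FC was -2.82 (SE 0.38, edgeR adjusted p = 0.00174). On log2(FPKM + 1) the difference was -1.73, since a pseudocount of 1 exceeds the treated level, and it still passed (limma adjusted p = 0.000832). Ankrd37 (chromosome 8, 45996902 to 46005707, minus strand) shares 22.7% of its exonic bases with Lrp2bp and 3.7% with Ufsp2, both on the opposite strand. Lrp2bp had 0, 4 and 4 counts in I/R and 6, 24 and 11 in I/R+Rk2, and Ufsp2 did not pass (log2FC 0.35, edgeR adjusted p = 0.0711), so neither neighbour showed the fall.

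P4ha1 and Adm fell by less than 2-fold. P4ha1 (chromosome 10, 59323296 to 59373304, plus strand), the catalytic subunit of a collagen prolyl hydroxylase, had 26.1, 19.98 and 22.5 CPM in I/R and 16.6, 12.1 and 12.1 CPM after Rk2. All treated livers lay below the lowest I/R liver, and the log2FC was -0.75 (SE 0.17, edgeR adjusted p = 0.011), a call kept under all 18 alternatives. Adm (chromosome 7, 110627661 to 110629820, plus strand), the vasodilator peptide adrenomedullin, had 7.92, 9.56 and 11.6 CPM in I/R and 5.80, 5.80 and 7.0 CPM after Rk2. Here the margin between the groups was narrow, with I/R replicate 1 close to I/R+Rk2 replicate 3, and the log2FC was -0.65 (SE 0.17, edgeR adjusted p = 0.0209). Adm did not pass without I/R replicate 3 (-0.51, edgeR adjusted p = 0.0704) or without Rk2 replicate 2 (-0.61, edgeR adjusted p = 0.0722).

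Vegfa, Bnip3 and Ndrg1 did not pass, and their groups overlapped. Vegfa (chromosome 17, 46016993 to 46032369, minus strand), the main angiogenic ligand, had 46.45, 51.2 and 51.1 CPM in I/R and 49.6, 50.8 and 46.4 CPM after Rk2, the coefficients of variation being 5.47% and 4.73%. This gave a log2FC of -0.02 (SE 0.08, edgeR adjusted p = 0.8755). Bnip3 (chromosome 7, 138890836 to 138909519, minus strand), a mitochondrial receptor for mitophagy, had 74.45, 82.5 and 107.5 CPM against 77.4, 97.8 and 98.5 CPM (log2FC 0.05, SE 0.16, edgeR adjusted p = 0.823). Ndrg1 (chromosome 15, 66929318 to 66969640, minus strand), a stress gene widely used as a hypoxia marker, had 48.2, 29.0 and 33.97 CPM against 42.9, 42.2 and 32.4 CPM (log2FC 0.08, SE 0.20, edgeR adjusted p = 0.759). For these 3 genes the spread between livers of one group exceeded the difference between the groups. The sign of each estimate changed in some of the alternatives, while none of the 3 passed in any of them. Of the exonic bases of Bnip3, 22.3% are shared with Gm45507 on the opposite strand, and reads there cannot be assigned without strand.

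**Figure D2:**
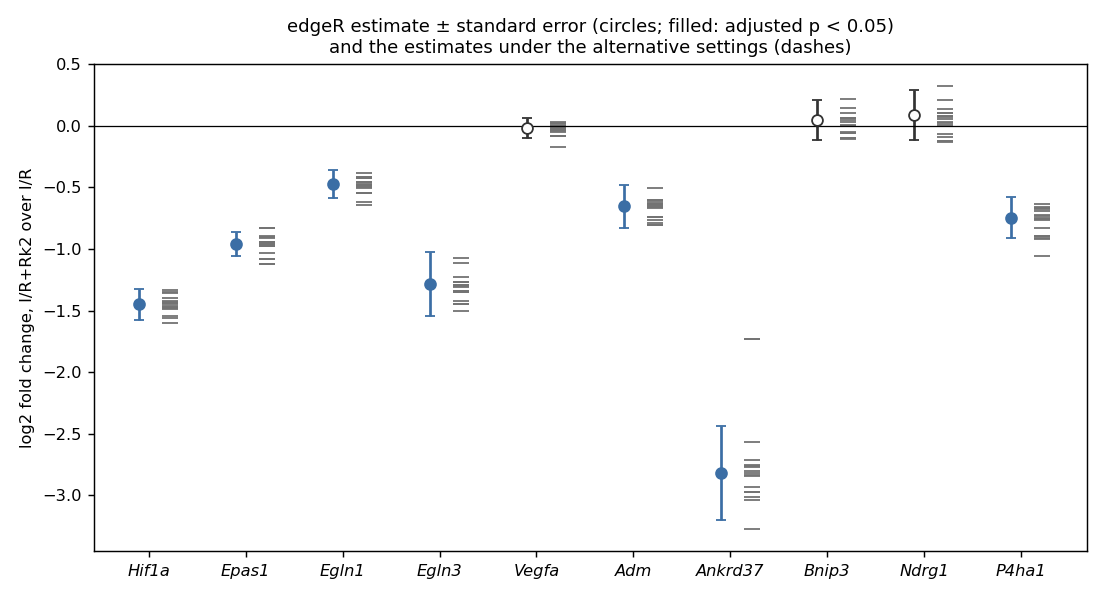
Log2 fold change of I/R+Rk2 over I/R for the 10 genes (y axis). Circles with bars show the edgeR estimate and its standard error, filled where the adjusted p is below 0.05, and grey dashes show the estimates under the alternative settings. The dashes of the 7 genes that passed all lie below 0, from -3.27 for Ankrd37 to -0.38 for Egln1, and those of Vegfa, Bnip3 and Ndrg1 lie on both sides of 0.

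Levels were compared between genes on the length-corrected FPKM scale (a read density per transcript length and depth). In the I/R livers the order by mean FPKM was Bnip3 (51.4 ± 8.14), Epas1 (44.5 ± 5.02), Hif1a (30.4 ± 0.138), Vegfa (23.4 ± 0.371), Egln3 (21.0 ± 4.002), Ndrg1 (14.1 ± 4.24), Egln1 (7.78 ± 1.35), P4ha1 (7.57 ± 1.45), Adm (6.87 ± 0.966) and Ankrd37 (3.92 ± 1.15; SD, n = 3). Neighbours whose livers overlapped, and which were therefore not told apart, were Bnip3 and Epas1, Vegfa and Egln3, Egln3 and Ndrg1, Egln1 and P4ha1, and P4ha1 and Adm. In the I/R+Rk2 livers Vegfa (22.2 ± 3.35) stood next after Bnip3 (47.7 ± 5.33) and overlapped Epas1 (20.4 ± 2.16), while Hif1a (10.4 ± 1.78) stood further down and overlapped both Ndrg1 (12.7 ± 2.70) above it and Egln3 (7.81 ± 2.53) below it. Ankrd37 was last in both groups, at 0.478 ± 0.299 FPKM after Rk2.

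**Figure D3:**
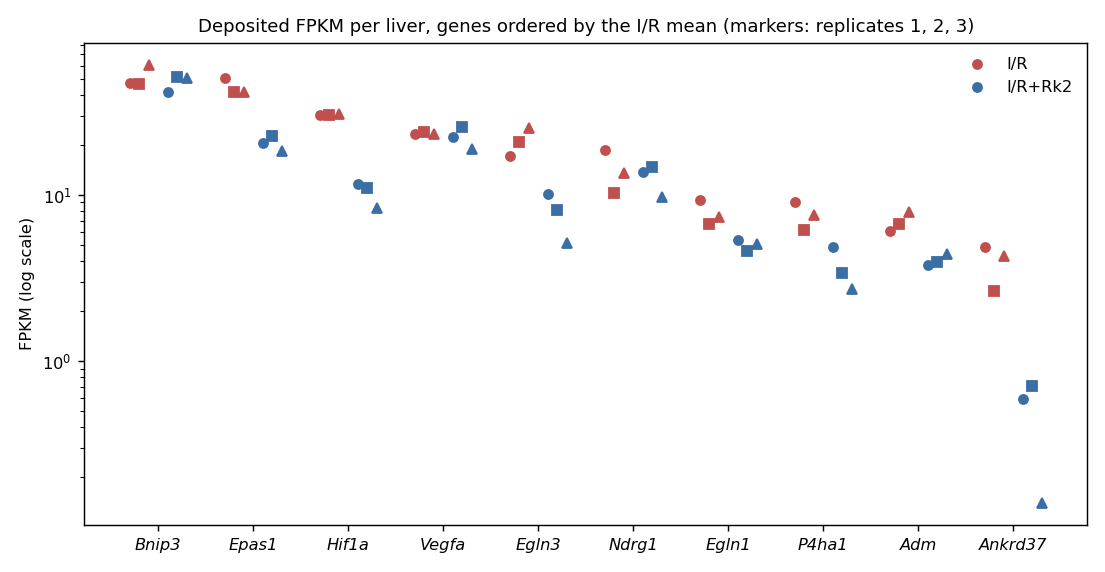
Deposited FPKM (log scale) of the 10 genes in each liver, ordered by the I/R mean, with I/R in red and I/R+Rk2 in blue and circles, squares and triangles for replicates 1, 2 and 3. Bnip3 leads in both groups, and Hif1a and Epas1 move below or level with Vegfa in the treated livers.

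The rest of the oxygen-sensing machinery was followed in a list of 13 further genes, of which 11 had enough reads for a test. In it 4 fell and 2 rose, with a median log2 fold change of -0.05. Of all tested genes 43.9% were called, 23.7% as lower and 20.3% as higher. Vhl, the substrate receptor of the ligase that binds hydroxylated HIF, fell from 14.5 ± 2.28 to 7.02 ± 2.05 CPM (log2FC -1.03, edgeR adjusted p = 0.0107). Hif1an, the asparaginyl hydroxylase that blocks coactivator binding, fell by 0.50 on the log2 scale (edgeR adjusted p = 0.00668), and Ep300, such a coactivator, fell by 0.88 (edgeR adjusted p = 0.0025). The ligase subunits Rbx1 (0.43, edgeR adjusted p = 0.00801) and Elob (0.39, edgeR adjusted p = 0.00964) rose, but neither passed with library size alone (edgeR adjusted p = 0.0998 and 0.156) or on FPKM, and Elob not with the length trend removed (log2FC 0.13, edgeR adjusted p = 0.332). On FPKM 2 or 3 members of the list passed, while 3842 of all 9914 genes tested passed on log2(FPKM + 1).

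Among 19 glycolytic HIF targets 8 fell and 1 rose, with a median log2 fold change of -0.46. These 9 of 19 stand beside 43.9% of all tested genes in either direction, a share close to that of the list. By direction, 23.7% of all tested genes passed as lower and 20.3% as higher. Slc2a1, the glucose transporter GLUT1, had 69.7, 78.8 and 77.1 CPM in I/R and 21.5, 18.0 and 15.1 CPM after Rk2, a log2FC of -2.04 (edgeR adjusted p = 0.00024). Slc16a3, the lactate exporter MCT4, went from 40.9, 31.8 and 38.7 to 5.97, 2.60 and 3.01 CPM (-3.27, edgeR adjusted p = 0.000568). Both had treated livers far below the lowest I/R liver. The hexokinases Hk1 (-1.51) and Hk2 (-2.03), the phosphofructokinase Pfkp (-1.79) and the aldolase Aldoa (-1.10) also fell by more than 2-fold. Pdk1, the kinase that turns off pyruvate dehydrogenase and a well-known HIF-1 target, went the other way, from 41.3 ± 9.57 to 91.5 ± 23.6 CPM (log2FC 1.15, SE 0.22, edgeR adjusted p = 0.00647). Abundant enzymes of the later steps did not pass, among them Pgk1, at 206.2 ± 16.6 against 206.1 ± 10.4 CPM, and Ldha (-0.20, edgeR adjusted p = 0.166), which passed as lower with library size alone (-0.36, edgeR adjusted p = 0.0386) and on FPKM.

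A further list held 25 HIF targets of matrix, iron, vasoactive and stress pathways, of which 22 were tested, 11 fell and 2 rose (median log2FC -0.60). Among all tested genes 43.9% were called, 23.7% as lower and 20.3% as higher. Hmox1, heme oxygenase 1, fell from 293.5 ± 24.4 to 46.8 ± 6.12 CPM (log2FC -2.65, edgeR adjusted p = 0.000197). Nos2, inducible nitric oxide synthase, had 44, 72 and 127 counts in I/R and 0 in every treated liver, at least 25.5-fold lower when 3 counts per library are taken as the floor. The list's median was the same with Nos2 at that bound. Further members lower by more than 2-fold included Ier3 (-2.28), Plod2 (-2.27), Stc2 (-1.64), Ero1l (-1.56), Edn1 (-1.50) and Kdm3a (-1.06), and Kdm3a did not pass on FPKM (-0.54, limma adjusted p = 0.103). On FPKM with a mean of at least 1, 7 of the 18 members tested passed.

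Receptors of the vascular ligands moved in opposite directions while Vegfa did not pass. Kdr (VEGFR2), the main signalling receptor for VEGF on endothelium, had 13.9, 11.6 and 12.0 CPM in I/R and 20.01, 25.6 and 21.0 CPM after Rk2 (log2FC 0.83, SE 0.14, edgeR adjusted p = 0.00332). Flt1 (VEGFR1), which acts largely as a decoy and is itself hypoxia-responsive, had 20.8, 17.6 and 21.4 CPM in I/R and 10.3, 9.21 and 9.76 CPM after Rk2 (-1.03, SE 0.12, edgeR adjusted p = 0.00108). Neither receptor overlapped between the groups. The ratio of Vegfa to the sum of both receptors was 1.34, 1.75 and 1.53 in I/R and 1.64, 1.46 and 1.51 in I/R+Rk2, with a mean log2 difference of 0.00 (exact two-sided permutation p = 1.0). Nrp1, a VEGF co-receptor, fell (-1.60, edgeR adjusted p = 0.0013), and so did Pgf, a ligand of Flt1, from 19, 26 and 30 counts to 6, 2 and 0. Vegfb, another ligand of Flt1, rose from 8.10 ± 0.404 to 12.3 ± 1.02 CPM (0.60, edgeR adjusted p = 0.00642). Calcrl, the receptor to which adrenomedullin binds, fell from 5.65 ± 1.62 to 1.72 ± 0.268 CPM (-1.73, edgeR adjusted p = 0.00296). Over the 14 ligands and receptors of this list, 12 were tested, 6 fell and 2 rose, beside 23.7% of all tested genes as lower and 20.3% as higher. On log2(FPKM + 1) 8 were tested, of which 2 were called lower and 2 higher. Of all 9914 genes tested on that scale, 2670 were called lower and 1172 higher.

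A list called relatives held 9 genes named like Ndrg1, P4ha1 or Bnip3, not all of them homologs. Of these 9, 7 were tested, 0 fell and 2 rose, beside 43.9% of all genes called. On log2(FPKM + 1) 1 was called lower and 1 higher, beside 2670 lower and 1172 higher of all 9914 genes tested. Ndrg2, the abundant liver paralog of Ndrg1, rose from 783 ± 43.8 to 1110 ± 92.4 CPM (log2FC 0.50, edgeR adjusted p = 0.00748). Ndrg3 rose from 7.36 ± 0.547 to 11.2 ± 0.343 CPM (0.61, edgeR adjusted p = 0.00549), but on FPKM it did not pass (0.18, limma adjusted p = 0.52). Neither P4ha2 (-0.28, edgeR adjusted p = 0.358) nor the mitophagy receptor Bnip3l (0.29, edgeR adjusted p = 0.178), which are also in the list of further targets, passed. Bnip2 did not pass on counts (-0.45, edgeR adjusted p = 0.0753), but it passed as lower on log2(FPKM + 1) (-0.64, limma adjusted p = 0.00469) and without I/R replicate 2 (-0.59, edgeR adjusted p = 0.0313). Bnip1 did not pass (0.33, edgeR adjusted p = 0.144). Without I/R+Rk2 replicate 1, Bnip1 (0.48, edgeR adjusted p = 0.0172) and Bnip3l (0.41, edgeR adjusted p = 0.0483) passed as higher.

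**Figure D4:**
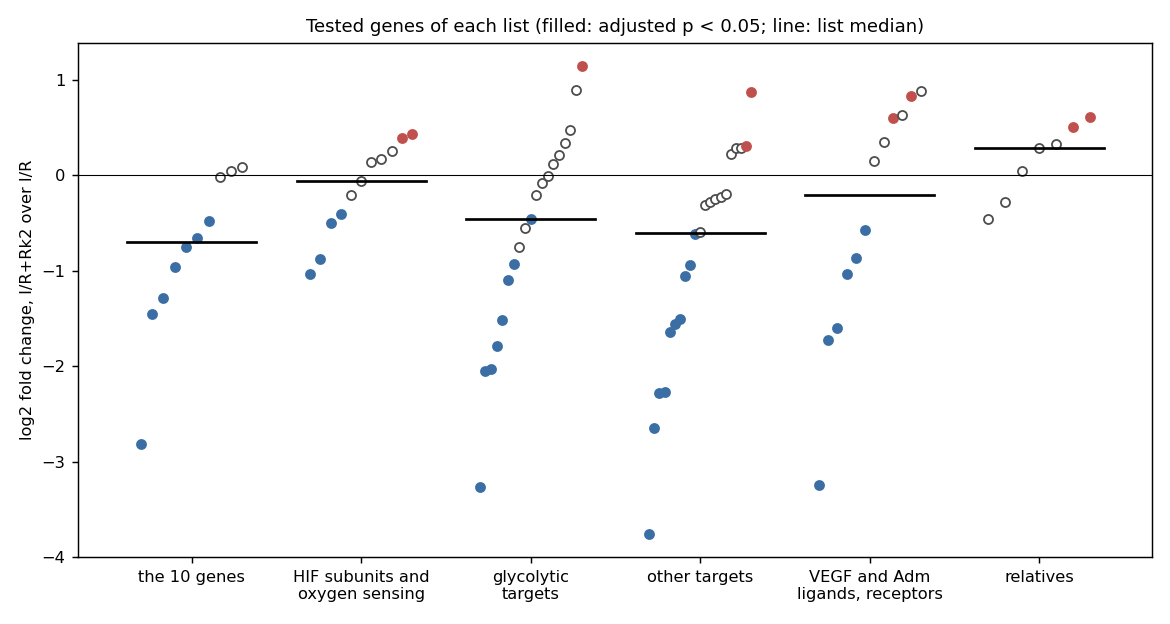
Log2 fold change of I/R+Rk2 over I/R (y axis) for the tested genes of each list, ordered within the list, filled blue where lower and red where higher at an adjusted p below 0.05, open otherwise, with the list median as a line. Nos2, at 0 counts in the treated livers, enters the median but is not drawn. The medians run from -0.70 for the 10 genes to 0.29 for the list called relatives, whose genes are not all homologs.

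The genes whose profile over the 6 livers was most like that of Hif1a were Tgfb1, Tpm4 and Smad3, with root mean square differences of 0.0576, 0.0682 and 0.0690 between mean-centred log2(CPM + 1) profiles, out of 6773 genes compared. For Epas1 they were Sat1 (0.0565), Stam2 (0.0589) and Trib1 (0.0626), and for Vegfa they were Eif2a (0.0302), Sys1 (0.0311) and Thoc3 (0.0327). These likenesses rest on 6 livers that fall into 2 groups and are given as a description.

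Summed cell type markers lay apart between the groups for some cell types and overlapped for others. The counts of markers that passed stand beside 43.9% of all tested genes, 23.7% as lower and 20.3% as higher. Of 10 neutrophil markers 9 fell, and their summed level was 566.6 to 681 CPM in I/R and 104 to 239.6 CPM after Rk2. All 10 monocyte markers fell (median log2FC -4.10), with sums of 1757 to 2094 and 1166 to 1227 CPM. Most of these sums was Fn1, a gene hepatocytes express, at 1609 ± 178 against 1150 ± 30.5 CPM (SD, n = 3). Of 9 Kupffer cell markers 1 fell, and their sums overlapped (79.9 to 124 and 65.6 to 80.2 CPM). Of 10 endothelial markers 4 fell and 3 rose, and their sums overlapped (229 to 239 and 204 to 241 CPM), beside the fall of Epas1 and the opposite changes of Flt1 and Kdr. Of 8 hepatocyte markers 1 fell and 4 rose, and their sums were 61220 to 72180 and 93110 to 117400 CPM, so genes of the labelled tissue were at high levels in every liver. Of 9 stellate markers 5 fell and of 6 cholangiocyte markers 3 fell, with sums that did not overlap, while all 5 red cell markers tested rose. The cholangiocyte sums were mostly Spp1, at 161.7 ± 29.7 against 70.6 ± 14.1 CPM (SD, n = 3), and Krt19, Krt7 and Sox9 did not pass. T and NK cell markers and B cell markers were near 0, with sums of at most 1.42 and 1.14 CPM and 0 tested. The part of cell composition in the changes of the 10 genes was not tested.

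Changes over all genes also followed transcript length. The median log2 fold change went from 0.25 in the shortest length class of tested genes to -0.26 in the longest of 5 classes. With the longest coding transcripts of Hif1a and Epas1 at 4724 and 5516 bases, both belong among the longer genes, and with the length trend removed their log2 fold changes were -1.35 and -0.83. All 7 genes that had passed still did so.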

How the data were processed

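RNA-seq was performed on total RNA (250 ng per liver, MGIEasy kit, BGISEQ platform) from 6 livers, 3 per group. Per the labels, the submitters' processing notes name HISAT2 2.2.1, StringTie 1.3.3 and mm10. The annotation and strand setting are not given in the sources used here. The authors deposited whole-number counts per gene (15454 rows) and FPKM per gene (21948 rows), without pooling replicates. Dose and times of ischemia and reperfusion follow the study's methods.

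Counts were tested in R 4.3.3 with edgeR 4.0.16 (filterByExpr, TMM scaling, quasi-likelihood F test, no covariates), with Benjamini-Hochberg adjustment over the 12411 genes tested and a threshold of 0.05. CPM is counts per 1000000 of the TMM-scaled library size. Standard errors are the absolute log2 fold change divided by the square root of F. Libraries held 16809613 to 35618074 counts, so 3 counts stood for 0.0888 to 0.184 CPM, which covers counting error only. Replicates differed by far more than sampling noise (chi-square per degree of freedom 31.4 to 74.8). The labels do not say more of the livers than their numbers, and p-values measure the spread between these libraries. Ratios within a library used counts + 0.5. DESeq2 1.42.0 on counts, limma 3.58.1 on log2(FPKM + 1), other scalings and filters, leaving out each liver, and removal of a loess trend of log2 CPM with transcript length (GENCODE M21, chosen after seeing the data, lengths for 98.4% of tested genes) were alternatives.

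The 10 genes, the lists and the markers were chosen with earlier results of these data known. Named were the 10 genes, the 4 smallest p-values of each list and members past 2-fold. The rule also named the 3 likest genes of Hif1a, Epas1 and Vegfa outside the lists and markers (mean of at least 10 CPM). A gene that this rule names is not reported here. Arnt, Egln2, Vegfb, Bnip3l, P4ha2, Ldha and Pgk1 were named after their values were seen. Of the row names of the counts, 19 are dates in place of symbols, none of them among the genes named. Gene positions are GENCODE M21 (GRCm38, the assembly of mm10).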

Additional observations from a re-analysis of the deposited data

How the results depend on the processing

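Of the 10 genes, Hif1a, Epas1, Egln3, Ankrd37 and P4ha1 kept direction and call under every alternative that could be fitted (Ankrd37 was not tested with at least 10 counts in every sample). Egln1 and Adm each lost the call in 2 of 18. With 1 liver left out, the log2 difference of the Hif1a to Epas1 ratio ranged from -0.602 to -0.432, that of Egln3 to Egln1 from -1.11 to -0.552, and that of Vegfa to its receptors from -0.0942 to 0.1. The count called in the relatives list then ranged from 2 to 4 (4 without I/R+Rk2 replicate 1). The count over all genes ranged from 3933 to 5459 and that over the 10 genes from 5 to 7 (5 without I/R+Rk2 replicate 2).

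Counts that moved by over 1.5 times: of the oxygen-sensing list 3 were called on log2(FPKM + 1), 3 on log2(FPKM + 0.1), 2 on unfiltered FPKM and 2 with the length trend removed together with the replicate block. Other HIF targets had 7 and ligands and receptors 4 called on log2(FPKM + 1) and as many on log2(FPKM + 0.1). Of all 9914 genes tested, 3842 were called on log2(FPKM + 1) and 3781 on log2(FPKM + 0.1).

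Log2 fold changes near 0 changed sign, and the cause was not tested. Vegfa had 0.0335 with upper-quartile scaling, 0.023 with the length trend removed, 0.0238 with the length trend removed with replicate block and -0.0547 to 0.0241 with 1 liver left out. Bnip3 had -0.107 with library size alone, -0.101 on log2(FPKM + 1), -0.103 on log2(FPKM + 0.1), -0.101 on log2(FPKM + 1) no filter, -0.0627 with the length trend removed, -0.0554 with the length trend removed with replicate block and -0.0487 to 0.213 with 1 liver left out. Ndrg1 had -0.0898 with library size alone, -0.124 on log2(FPKM + 1), -0.132 on log2(FPKM + 0.1), -0.124 on log2(FPKM + 1) no filter and -0.0646 to 0.323 with 1 liver left out. Eif2a had 0.0224 with upper-quartile scaling and -0.0562 to 0.0116 with 1 liver left out. Sys1 had -0.152 with library size alone, -0.000577 with no filter, -0.0136 with at least 10 counts in every sample, -0.0895 with the length trend removed, -0.0905 with the length trend removed with replicate block and -0.0446 to 0.0653 with 1 liver left out. Egln2 had -0.0211 with library size alone. Pgk1 had 0.0108 with relative log expression scaling, 0.0515 with upper-quartile scaling, 0.0135 in DESeq2, 0.00141 with replicate block and -0.0524 to 0.0551 with 1 liver left out.

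Replicate numbers in the labels name no shared animal, litter or day. The numbers were therefore not taken to pair the livers. Deviations of same-numbered livers from their group means correlated at -0.0559, 0.00522 and -0.0579. With the replicate block 4713 genes and 7 of the 10 were called, and with the block and the length trend removed 4278 and 7. The block cannot change the ratio differences, since the mean of paired differences equals the difference of the group means. For Hif1a to Epas1 the exact sign-flip permutation p was 0.25, the smallest value that test can give with 3 replicate numbers. Depth limits the precision for Ankrd37, which had 3 to 18 counts per treated liver.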
